A study of Mus musculus with 4 samples.

Results

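The 10 genes described here make, load and regulate major histocompatibility complex (MHC) class I: the classical heavy chains H2-K1 and H2-D1, the non-classical heavy chain H2-M2, the light chain B2m, the peptide transporter subunits Tap1 and Tap2, the loading factor Tapbp, the inducible proteasome subunits Psmb8 and Psmb9, and the class I transactivator Nlrc5. They were chosen by name from the 28692 genes of the count table, with H2-M2 added because it had led a cluster of resident macrophages in these data. The 10 genes held 257917 unique molecular identifiers (UMIs, each a counted transcript molecule) in the 4771 of 6954 cell barcodes that had at least 1000 UMIs.

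The cells came from the colon lamina propria, the connective tissue under the gut epithelium, of 4 male C57/Bl6N mice. Mice DEP 11 and DEP 13 were gavaged with 12 µg diesel exhaust particles (DEP) in 200 µL phosphate-buffered saline (PBS), 5 days weekly over roughly 6 months, and mice PBS 2 and PBS 3 were given PBS alone. Their age is not given. Cells were sorted as Cd11b+ together with Ly6c2+ or Cd64+, a gate that takes monocytes and macrophages, and each mouse filled a single well of a 10x Genomics 3′ v2 run. The mouse was the replicate, with 2 mice in each group.

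MHC class I shows peptides from inside the cell to CD8 T cells. The proteasome cuts proteins into peptides, and under interferon gamma the inducible subunits Psmb8, Psmb9 and Psmb10 take the place of the standard catalytic subunits Psmb5, Psmb6 and Psmb7. Tap1 and Tap2 pump the peptides into the endoplasmic reticulum, where Tapbp (tapasin) holds an empty heavy chain with B2m until a peptide binds, and Nlrc5 raises transcription of these genes through the X and Y boxes of their promoters.

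Of the 10 genes, 8 lie in the MHC region of chromosome 17 (mm10, GENCODE M21). H2-K1 spans chr17:33996017-34000347 on the minus strand, H2-D1 chr17:35262730-35267499 on the plus strand and H2-M2 chr17:37480851-37483552 on the minus strand. Tap1 (chr17:34187553-34197225, plus strand) and Psmb9 (chr17:34181987-34187764, minus strand) overlap at their 5′ ends, and their RefSeq start sites are 226 bases apart on opposite strands. Psmb8 starts at position 34197721 and Tap2 at 34203527 of the same chromosome, both on the plus strand, and Tapbp starts at 33915899. B2m is on chromosome 2 (chr2:122147686-122153083, plus strand) and Nlrc5 on chromosome 8 (chr8:94434356-94527272, plus strand).

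The upstream sequences of the classical chains, B2m and H2-M2 are shown so that the known promoter boxes of class I genes can be looked for in them. They were taken from RefSeq (GRCm38.p6, 250 bases before to 50 after each start), where 8 of the 10 genes matched and Tap2 and Nlrc5 did not. Capitals mark the motifs searched on both strands: the kappa B palindrome (the first capitals of H2-K1), TGACG (core of the X2 box, CGTCA on the other strand), CCAAT (core of the Y box, ATTGG on the other strand) and the interferon stimulated response element (GAAA, any 2 bases, GAAA, the first capitals of B2m). Each stretch is printed 5′ to 3′ on the strand of its gene.
H2-K1 (chr17:34000349-34000468, minus strand): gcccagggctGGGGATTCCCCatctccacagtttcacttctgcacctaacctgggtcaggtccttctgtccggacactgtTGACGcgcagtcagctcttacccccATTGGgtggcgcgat
B2m (chr2:122147538-122147648, plus strand): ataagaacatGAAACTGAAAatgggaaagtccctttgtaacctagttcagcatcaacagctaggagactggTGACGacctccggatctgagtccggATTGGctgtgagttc
H2-M2 (chr17:37483624-37483800, minus strand): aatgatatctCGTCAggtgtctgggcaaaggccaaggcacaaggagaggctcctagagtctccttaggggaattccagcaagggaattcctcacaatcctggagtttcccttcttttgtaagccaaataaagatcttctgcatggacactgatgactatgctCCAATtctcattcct

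H2-K1 and H2-D1 differ little there. The first 120 bases of both stretches were identical at 108 positions (90.0%, no gaps), and only the 29 bases around the 2 upstream motifs of H2-D1 are printed beside those of H2-K1, since an annotated H2-D1 transcript starts further upstream.
H2-K1, kappa B (chr17:34000439-34000467, minus strand): cccagggctGGGGATTCCCCatctccaca
H2-D1, kappa B (chr17:35262914-35262942, plus strand): cccagggctGGGGATTCCCCatctcctca
H2-K1, X2 (chr17:34000372-34000400, minus strand): tccggacactgtTGACGcgcagtcagctc
H2-D1, X2 (chr17:35262981-35263009, plus strand): ccgggacactgaTGACGcgctggcaggtc
The kappa B palindrome was found in 10 of 32851 promoter windows (0.0304%), and 3 of these belonged to H2-K1 (2 start sites) and H2-D1. TGACG was found in 20.8% of all windows and in those of B2m, H2-D1, H2-K1, H2-M2, Psmb9 and Tap1, and CCAAT in 37.4% of all windows and in those same genes and Tapbp. The response element, in the spelling given above, was found in 3.44% of windows and, among the 8 genes, in B2m. Looser spellings were not searched, so the other genes are not shown to lack such an element. The interferon gamma activated site (TTC, any 3 bases, GAA) was found in 8.30% of windows and, among the 8 genes, in Psmb8. TGACG and ATTGG began at -41 and -16 from the start of H2-K1 and at -78 and -53 from that of B2m, whereas in H2-M2 the matches lay further apart, CGTCA at -236 and CCAAT at -84. These are letter matches and were not tested as binding sites.

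Barcodes of at least 1000 UMIs summed to 7324848 and 4357153 UMIs for DEP 11 and DEP 13 (1218 and 675 barcodes) and to 10063287 and 9654891 for PBS 2 and PBS 3 (1296 and 1582), so that DEP 13 gave the least precise values over all barcodes. Levels are given as UMIs of a gene per 1000000 UMIs of the sum (CPM). Barcodes were classed by their level of Ly6c2, a monocyte marker (at least 2 UMIs per 10000), and of C1qa, a complement gene of resident macrophages (at least 5 per 10000). This gave 190 Ly6c2-high C1qa-low barcodes (76, 42, 25 and 47 in DEP 11, DEP 13, PBS 2 and PBS 3), 998 high for both, 3371 C1qa-high Ly6c2-low and 212 low for both. PBS 2 held the fewest UMIs in the Ly6c2-high C1qa-low class (140241, against 228484 in DEP 13) and in barcodes low for both (50651 from 17 barcodes). All 5 tested monocyte markers other than Ly6c2 were lower, and all 8 resident macrophage markers other than C1qa higher, in the C1qa-high Ly6c2-low class than in the Ly6c2-high C1qa-low class. The cuts were loose: 705 of the 998 barcodes high for both had a C1qa level of only 5 to 20, so the same comparisons were also run with a C1qa cut of 20, which was chosen after the data had been seen. T, B and plasma cell genes marked 200 barcodes (38 to 78 per mouse), the summed plasma cell markers ranged from 1723 to 5922 CPM between mice, and the 4 neutrophil markers summed to 26.8 to 37.3 CPM, with S100a9 at 0, S100a8 at 1 to 5 and Retnlg at 0 to 1 UMIs per mouse and Csf3r making up the rest. Among barcodes of at least 1000 UMIs, 12 barcode codes occurred in more than 1 library.

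The share of barcodes with a UMI differed widely between the members, and it follows depth as well as level. A UMI of B2m was found in 99.5% of the 4771 barcodes (95% exact binomial interval 99.2% to 99.6%, which covers counting error only), of H2-D1 in 97.8% and of H2-K1 in 94.1%. Psmb8 was found in 87.5%, Psmb9 in 54.9% and Tapbp in 54.5% of barcodes. Tap1 (29.0%), Tap2 (28.4%) and H2-M2 (24.2%) were found in fewer barcodes, and Nlrc5 in 4.61%, with 31 to 75 UMIs per mouse. Among the 1614 barcodes under 500 UMIs, at a median of 287.5 UMIs, the shares were 31.4% for B2m, 24.8% for H2-D1 and 18.2% for H2-K1, and after thinning to 1000 UMIs the kept barcodes gave 96.8%, 79.1% and 54.4%. Thinned shares of Tap1 and Tap2 were 5.53% and 5.34%. Nlrc5 did not pass the filter of a UMI in at least 5% of barcodes and is given by its levels only: 7.78, 7.11, 7.45 and 6.32 CPM in DEP 11, DEP 13, PBS 2 and PBS 3.

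**Figure D1:**
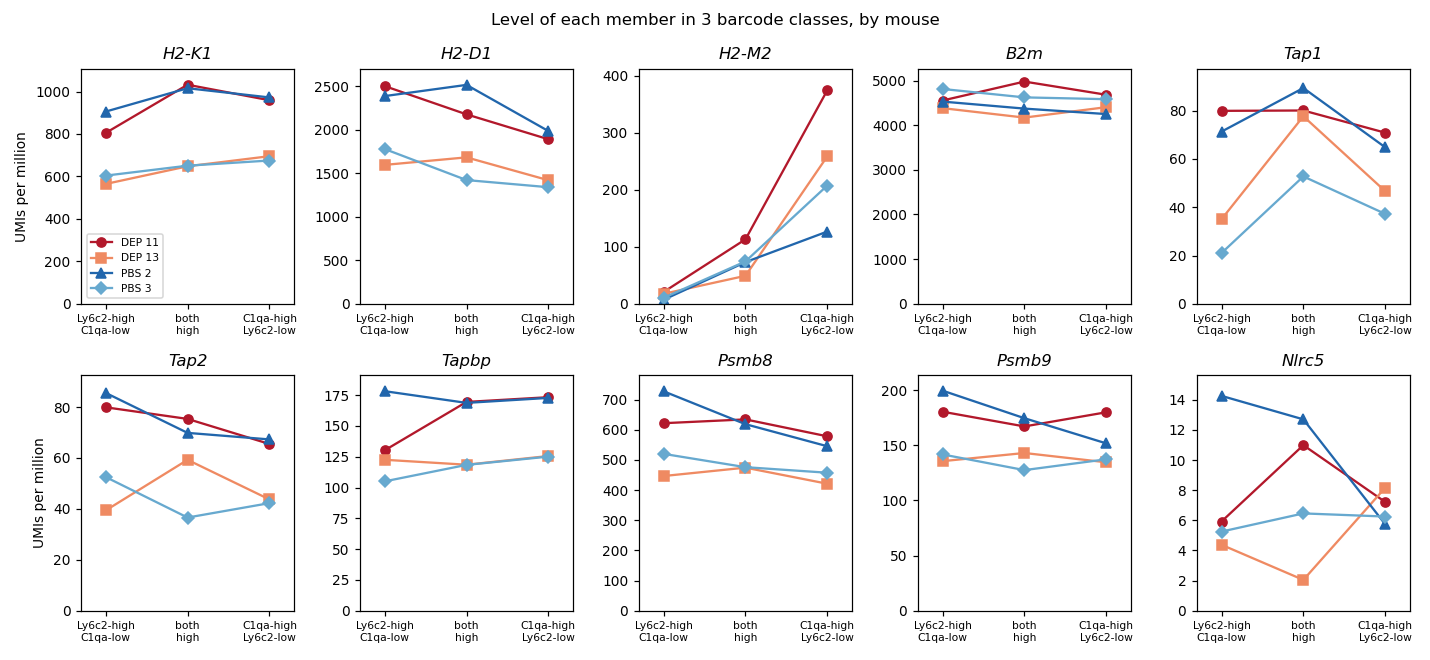
Level of each of the 10 genes in CPM (y axis from 0) in 3 barcode classes (x axis), with a line per mouse. H2-M2 goes from 7.13 to 20.7 in the Ly6c2-high C1qa-low class to 127 to 374 in the C1qa-high Ly6c2-low class in all 4 mice, whereas the lines of B2m stay between 4169.5 and 4976.

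The first comparison asked whether class I genes differ between monocyte-like and resident-like cells of the same mice. It was made over 12 sums (4 mice in 3 classes) with the mouse as a block. Of 6658 tested genes, 1183 (17.8%) passed a false discovery rate of 5% in the quasi-likelihood test of edgeR, 581 higher (8.73%) and 602 lower (9.04%) in the C1qa-high Ly6c2-low class. Among the 8 members tested, H2-K1 rose and H2-D1 fell, and the other 6 did not pass. Their median log2 fold change was -0.02, against 0.03 over all tested genes. Because reads of 3′ ends were counted, levels were not scaled by transcript length, and 50-base words of the last 500 bases were shared with other genes at 0.443% (H2-K1) and 9.53% (H2-D1), and how reads of near-identical heavy chains were assigned is not given. Plasma cell markers summed to 601 to 11060 CPM in the Ly6c2-high C1qa-low class of the 4 mice and to 1493 to 4491 in the C1qa-high Ly6c2-low class.

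H2-K1, a heavy chain that presents peptides to CD8 T cells, was at 805, 565, 906 and 604 CPM in the Ly6c2-high C1qa-low class of DEP 11, DEP 13, PBS 2 and PBS 3, and at 959, 695, 972 and 675 in the C1qa-high Ly6c2-low class. It was higher in the latter class in 4 of 4 mice, although the ranges of the classes overlapped because the mice differed. The log2 fold change was 0.25 (SE 0.0782, edgeR adjusted p = 0.0268). Without the T, B and plasma cell barcodes it was 0.35 (adjusted p = 9.84e-04). The call was lost in 10 of 20 alternatives, among them without DEP 11 (adjusted p = 0.163), without DEP 13 (0.132) or without PBS 3 (0.120). It was also lost in the likelihood ratio test and without the block for the mouse. With a C1qa cut of 20 the log2 fold change was 0.06 (adjusted p = 0.546).

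H2-D1, the other classical heavy chain of this strain, went the opposite way. Its levels were 2504, 1597, 2389 and 1780 CPM in the Ly6c2-high C1qa-low class and 1892, 1421, 1987 and 1341 in the C1qa-high Ly6c2-low class, lower in the latter in 4 of 4 mice. H2-D1 fell by 0.27 on the log2 scale (SE 0.0714, edgeR adjusted p = 0.0105). The call was lost in 6 of 20 alternatives. These were leaving out DEP 11 (adjusted p = 0.0880), halved cuts (log2 fold change -0.07) and thinning every barcode to 1000 UMIs (adjusted p = 0.236). It was lost as well without the block for the mouse, in the likelihood ratio test and with no filter on low genes. With a C1qa cut of 20 it was kept (-0.32, adjusted p = 4.54e-04).

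The balance of the 2 classical chains therefore differed between the classes within each mouse. In the Ly6c2-high C1qa-low class there were 3.11, 2.83, 2.64 and 2.95 H2-D1 UMIs per H2-K1 UMI in DEP 11, DEP 13, PBS 2 and PBS 3 (2.88 ± 0.199, SD, n = 4). In barcodes high for both markers there were 2.11, 2.599, 2.48 and 2.19 (2.34 ± 0.233), and in the C1qa-high Ly6c2-low class 1.97, 2.04, 2.04 and 1.99 (2.01 ± 0.0372). The first and the last class did not overlap. The ratio was higher in the Ly6c2-high C1qa-low class in 4 of 4 mice also without T, B and plasma cell barcodes (3.10 against 2.03), when thinned (2.59 against 2.04), with halved or doubled cuts and with a C1qa cut of 20 (2.57 against 1.97). Over all barcodes of a mouse it was nearly constant, at 2.07, 2.18, 2.15 and 2.04, although the levels of both chains differed by 1.46 fold (H2-K1) and 1.54 fold (H2-D1) between the lowest and the highest mouse.

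**Figure D2:**
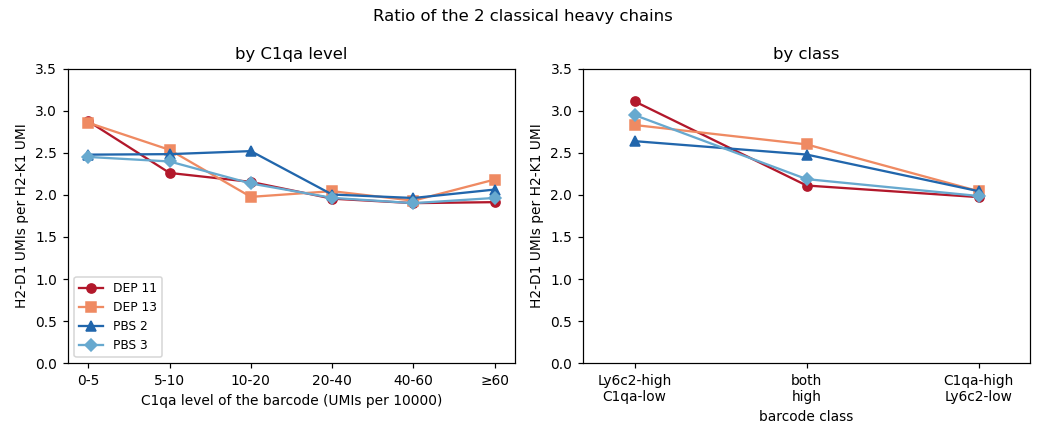
H2-D1 UMIs per H2-K1 UMI (y axis from 0) by the C1qa level of the barcodes (left, UMIs per 10000) and by class (right), with a line per mouse. The mean of the 4 mice goes from 2.66 below a C1qa level of 5 to 1.99 at 20 to 40 and is 2.03 at 60 and above.

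Along the C1qa level, the mean ratio fell mainly up to the step of 20 to 40. The mean of the 4 mice was 2.66 ± 0.232 in barcodes with a C1qa level under 5, 2.42 ± 0.120 at 5 to 10 and 2.20 ± 0.230 at 10 to 20. It was 1.99 ± 0.0407 at 20 to 40, 1.92 ± 0.0292 at 40 to 60 and 2.03 ± 0.119 at 60 and above, and neighbouring steps of these upper 3 overlapped between mice. H2-K1 itself was at 759 ± 142 CPM in the lowest and 867 ± 162 in the highest step, higher in the latter in 4 of 4 mice, and H2-D1 at 2015 ± 363 and 1755 ± 298, lower in 4 of 4. By the Ly6c2 level H2-K1 was at 829 ± 157 CPM in barcodes without Ly6c2 and 796 ± 177 at 10 per 10000 and above, lower in the latter in 2 of 4 mice. H2-D1 was at 1694 ± 317 and 2071 ± 474 in these steps, higher in the latter in 4 of 4 mice.

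B2m, the light chain shared by all class I molecules, did not pass between the classes. Its levels were 4552, 4381, 4528 and 4810 CPM in the Ly6c2-high C1qa-low class and 4681, 4403, 4249 and 4582 in the C1qa-high Ly6c2-low class, higher in 2 of 4 mice. The log2 fold change was 0.02 (SE 0.0590, adjusted p = 0.889), the smallest standard error of any member. By C1qa level B2m was at 4273 ± 146 CPM under 5, at 4056 ± 227 at 10 to 20 and at 4876 ± 289 at 60 and above, and the last step was above the first in 4 of 4 mice. By the Ly6c2 level it was also higher at the upper end in 4 of 4 mice, at 4417 ± 164 in barcodes without Ly6c2 and 4883 ± 145 at 10 and above.

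The loading and proteasome members did not pass between the classes. Tapbp had a log2 fold change of 0.24 (SE 0.126, adjusted p = 0.219) and was higher in the C1qa-high Ly6c2-low class in 3 of 4 mice. Psmb8, which takes the place of Psmb5, had -0.15 (SE 0.0818, adjusted p = 0.264) and was lower in 4 of 4 mice. Psmb9, which takes the place of Psmb6, had -0.05 (SE 0.119, adjusted p = 0.888). It was also lower in 4 of 4 mice, though at only -0.004 on the log2 scale in DEP 11. Tap2 had -0.16 (SE 0.193, adjusted p = 0.676) and was higher in 1 of 4 mice. These intervals include changes of about the size called for the heavy chains.

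Tap1 changed its call with where the classes were divided. Its levels were 79.9, 35.0, 71.3 and 21.0 CPM in the Ly6c2-high C1qa-low class, from 4 to 27 UMIs per mouse, and 70.9, 46.6, 64.8 and 37.2 in the C1qa-high Ly6c2-low class. The log2 fold change was 0.10 (SE 0.216, adjusted p = 0.828). With doubled cuts it was -0.51 (adjusted p = 0.00590) and with a C1qa cut of 20 it was -0.52 (adjusted p = 2.10e-04), so that Tap1 was then lower in the C1qa-high Ly6c2-low class. Psmb8 also passed with a C1qa cut of 20 (-0.21, adjusted p = 0.0145). Psmb9 moved as far, to 0.58 with halved cuts, and did not pass. By C1qa level, Tap1 was at 61.6 ± 29.6 CPM under 5, 79.8 ± 27.6 at 5 to 10, 60.5 ± 30.6 at 10 to 20 and 51.7 ± 12.3 at 60 and above, and these steps overlapped.

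Ratios of inducible subunits to their standard partners were compared between the classes without a test. There were 3.82 ± 0.881 Psmb8 UMIs per Psmb5 UMI in the Ly6c2-high C1qa-low class and 3.64 ± 0.163 in the C1qa-high Ly6c2-low class (SD, n = 4). For Psmb9 over Psmb6 the ratios were 0.633 ± 0.120 and 0.672 ± 0.107, and for Psmb10 over Psmb7 1.46 ± 0.101 and 1.32 ± 0.191. Within mice, the ratio was higher in the C1qa-high Ly6c2-low class in 4 of 4 mice for Psmb9 over Psmb6, in 3 of 4 for Psmb8 over Psmb5 and in 1 of 4 for Psmb10 over Psmb7, while the class means of each pair differed by less than the larger of their SDs.

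Proteasome genes around these members were counted against the 9.04% of all genes that fell in the C1qa-high Ly6c2-low class. Of 11 other subunits of the 20S core, 4 fell and 0 rose, with a list median of -0.27, among them the ring subunits Psma7 (-0.88, SE 0.0887, adjusted p = 1.97e-07) and Psma4 (-0.53, adjusted p = 7.35e-04), followed by Psmb1 and Psmb3. Of 6 genes for the activator, its relatives, the assembly factor Pomp and Psmb10, 3 fell and 0 rose (median -0.42): Psme2, a subunit of the interferon-inducible cap (-0.43, adjusted p = 6.30e-04), Pomp (-0.41, adjusted p = 9.09e-04) and Psmb10 (-0.51, adjusted p = 0.00143). Of the 3 standard catalytic subunits 0 passed (median -0.14), and of 17 subunits of the 19S cap, which feeds proteins to the core, 1 fell, Psmd8 (-0.56, adjusted p = 8.56e-04, list median 0.00).

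Most other class I and loading genes did not pass between the classes, where 8.73% of all genes rose and 9.04% fell. Of 11 tested class I-like genes 3 rose and 0 fell (median 0.11), the neonatal Fc receptor Fcgrt (1.38, SE 0.227, adjusted p = 1.24e-04), the iron regulator Hfe (0.95, adjusted p = 9.93e-04) and H2-Q6 (2.87, SE 0.729, adjusted p = 0.00739). Fcgrt and Hfe do not present peptides to T cells, and H2-Q6 has near-identical neighbours among which reads could be split. H2-Q6 passed the filter within the C1qa-high Ly6c2-low class but not within the Ly6c2-high C1qa-low class. Its rise thus follows partly from the filter and is given as a description. Of 13 loading and trimming genes 2 fell and 0 rose, both subunits of the Sec61 channel of the endoplasmic reticulum, Sec61b (-0.63, adjusted p = 4.69e-05) and Sec61g (-0.63, adjusted p = 2.15e-04).

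Genes that drive or accompany class I induction were called in both directions, in numbers near those over all genes (8.73% higher and 9.04% lower). Of 15 transcriptional regulators 2 rose and 2 fell (median -0.26). Irf8, a factor of monocyte and macrophage development (0.68, adjusted p = 1.53e-04), and Ciita, the class II transactivator related to Nlrc5 (0.62, adjusted p = 0.0467), rose, and Stat2, a carrier of type I interferon signals, fell (-1.37, adjusted p = 0.00158). Of 5 receptor and signalling genes of interferon gamma, the feedback inhibitor Socs3 rose (0.44, adjusted p = 0.00420) and the receptor chain Ifngr1 fell (-0.46, adjusted p = 0.00166). Of 12 interferon gamma induced genes, 1 rose, the GTPase Gbp8 (1.67, adjusted p = 0.00293), and 1 fell, the GTPase Irgm1 (-1.31, adjusted p = 0.0131). Like H2-Q6, Gbp8 did not pass the filter within the Ly6c2-high C1qa-low class, so its rise is likewise a description.

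H2-M2 is a non-classical class I heavy chain of the M region. Since it had been picked as a gene of a resident cluster, its class pattern is a description without a test. It was at 20.7, 17.5, 7.13 and 10.5 CPM in the Ly6c2-high C1qa-low class of DEP 11, DEP 13, PBS 2 and PBS 3, from 7, 4, 1 and 2 UMIs, and at 374, 259, 127 and 207 in the C1qa-high Ly6c2-low class. The second level was 18.1, 14.8, 17.8 and 19.7 times the first in the 4 mice, with 95% counting intervals as wide as 3.18 to 702 in PBS 2. Pooled over mice, which give unequal shares of the classes, the ratio was 14.5 (95% counting interval 8.65 to 26.6, from 14 against 5407 UMIs). The class of C1qa-high Ly6c2-low barcodes held 91.6% of its 5904 UMIs.

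Along the C1qa level, H2-M2 differed mainly above a level of 20. Its mean over the 4 mice was 18.3 ± 6.87 CPM in barcodes with a C1qa level under 5, 20.7 ± 4.62 at 5 to 10 and 24.1 ± 6.24 at 10 to 20, and these 3 steps overlapped. It was 83.2 ± 56.8 at 20 to 40, 261 ± 103 at 40 to 60 and 405 ± 154 at 60 and above. PBS 2 stayed at 18.1 at 20 to 40, where the other mice were at 69.7 to 155. By the Ly6c2 level H2-M2 was at 232 ± 99.6 CPM in barcodes without Ly6c2 and at 23.3 ± 8.56 at 10 and above.

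**Figure D3:**
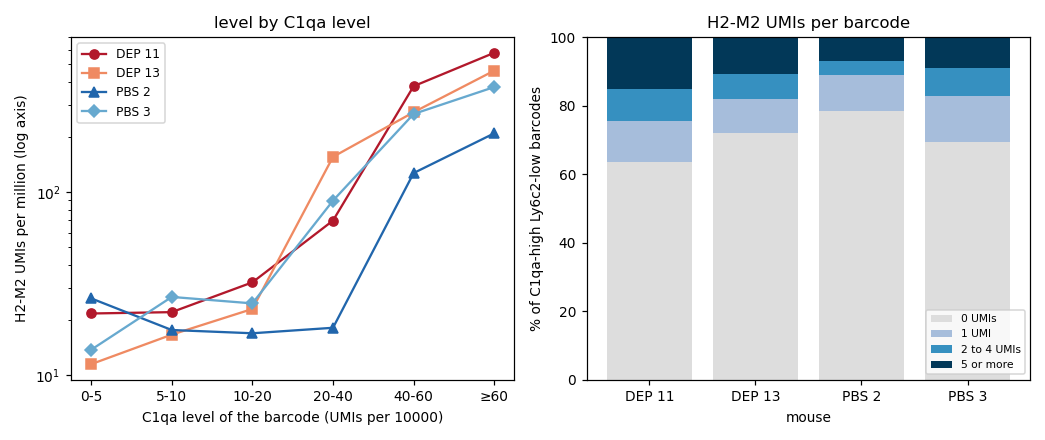
Left, H2-M2 level in CPM (log axis) by the C1qa level of the barcodes (UMIs per 10000), with a line per mouse. Right, the share of C1qa-high Ly6c2-low barcodes with 0, 1, 2 to 4 and 5 or more H2-M2 UMIs in each mouse; the last group holds 15.2% and 10.7% under DEP and 6.83% and 9.03% under PBS.

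H2-M2 was uneven among the C1qa-high Ly6c2-low barcodes. Of 3371 such barcodes 2388 had no H2-M2 UMI, 398 had 1 and 343 had 5 or more, with a highest count of 80. The 10% of barcodes with most H2-M2 held 79.5% of the UMIs of the gene in that class. A UMI was found in 29.2% of these barcodes at a median of 6455 UMIs and in 25.0% (95% interval 19.2% to 31.6%) of the T, B and plasma cell barcodes at a median of 7204. Of the latter 200 barcodes, 123 also belonged to the C1qa-high Ly6c2-low class and 50 were high for both markers, so that they are no background free of macrophage RNA, and no threshold for expression was drawn from them. When every barcode was thinned to 1000 UMIs the shares were 11.9% and 2.5%, and in the Ly6c2-high C1qa-low class 1.053%, against 7.37% before thinning.

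The genes most like H2-M2 over the 16 sums (4 mice in 4 classes), by Pearson correlation of the log2 level among 4067 genes over 20 CPM, were Tmem176a (r = 0.918), Ms4a7 (0.904), Gatm (0.903), Vcam1 (0.898) and C1qb (0.898). C1qa, which sets the classes, had 0.875, and the other tested members had -0.29 to 0.36. The sums share libraries and the classes differ in many genes, so these values only describe the likeness.

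Within the C1qa-high Ly6c2-low class, barcodes with 5 or more H2-M2 UMIs (125, 53, 63 and 101 in DEP 11, DEP 13, PBS 2 and PBS 3) were set against those with none (511, 338, 703 and 748), without the T, B and plasma cell barcodes. The former were deeper, with medians of 7450 to 11546 against 5186 to 7209 UMIs, and had a higher C1qa level, with medians of 58.9 to 72.2 against 35.4 to 47.5 per 10000. Among 1999 genes over 50 CPM, 1007 differed in the same direction in all 4 mice. This contrast and its genes were chosen after the data had been seen and carry no test.

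The largest increases with H2-M2 were in Cadm1, an adhesion molecule (mean log2 ratio 1.56 ± 0.175, SD, n = 4, with 1 CPM added), Zmynd15 (1.52 ± 0.149), Cd4 (1.497 ± 0.249), the collagenase Mmp13 (1.45 ± 0.257), Lilra5 (1.45 ± 0.197), the inhibitory receptor Lag3 (1.41 ± 0.107), the elastase Mmp12 (1.39 ± 0.371) and the DNase Dnase1l3 (1.36 ± 0.138). Cd4, the coreceptor also carried by long-lived gut macrophages, was at 78.5, 104, 85.6 and 61.8 CPM in barcodes with 5 or more H2-M2 UMIs and at 32.7, 32.8, 24.4 and 23.8 in those with none. The largest decreases were in S100a4 (-2.64 ± 0.512), F13a1 (-2.53 ± 0.418), Gm7676, Gm9844, Tmsb10 (-2.003 ± 0.407), S100a6 (-1.97 ± 0.269), Chil3 and the chemokine receptor Ccr2 (-1.86 ± 0.395), of which F13a1, Chil3 and Ccr2 are monocyte genes. C1qa differed by 0.53 ± 0.0883.

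The classical members differed little between barcodes with and without H2-M2. The mean log2 ratio was 0.08 ± 0.0738 for H2-K1 (above 0 in 4 of 4 mice), 0.02 ± 0.0416 for H2-D1 and 0.08 ± 0.0874 for B2m. Tapbp was higher in 4 of 4 mice (0.28 ± 0.187), and Tap1 (-0.50 ± 0.358) and Nlrc5 (-0.54 ± 0.470) were lower in 4 of 4. In barcodes with H2-M2, Tap1 was at only 30.7 to 61.7 CPM and Nlrc5 at 4.07 to 7.14. One direction in all 4 mice was common in this contrast, with 1007 of 1999 genes over 50 CPM. Psmb8 (-0.10 ± 0.0968), Psmb9 (-0.04 ± 0.115) and Tap2 (0.19 ± 0.350) differed in both directions among the mice.

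**Figure D4:**
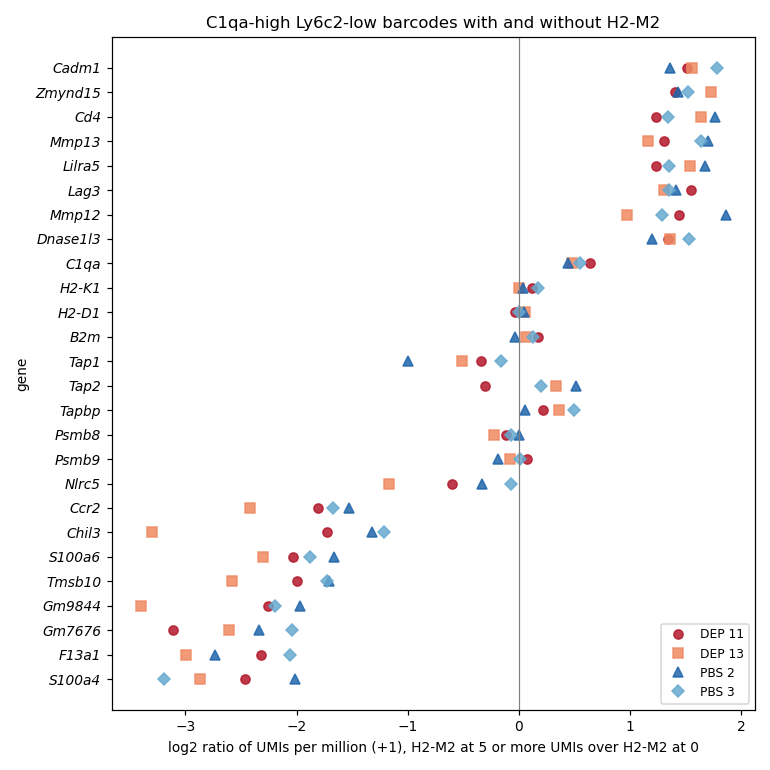
Log2 ratio of the level (CPM plus 1) in C1qa-high Ly6c2-low barcodes with 5 or more H2-M2 UMIs over those with none, a point per mouse. Genes from Cadm1 to Dnase1l3 lie above 0 and genes from Ccr2 to S100a4 below 0 in all 4 mice, and H2-K1, H2-D1 and B2m lie between -0.04 and 0.17.

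The second comparison asked whether DEP changed these genes. Over all barcodes 0 of 6609 tested genes (0%) passed between DEP and PBS mice in edgeR, with 171 at an unadjusted p under 0.05. The edgeR likelihood ratio test called 8, DESeq2 4 and limma voom 0. Of the 9 tested members, 8 had log2 fold changes between -0.00 and 0.20, with standard errors of 0.143 to 0.262, and their 95% intervals reached from -0.41 (H2-K1) to 0.71 (Tap1).

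H2-K1 was at 959 and 683 CPM in DEP 11 and DEP 13 and at 981 and 670 in PBS 2 and PBS 3, and the log2 fold change of DEP over PBS was 0.0004 (SE 0.207, adjusted p = 0.999). H2-D1 was at 1982 and 1487 against 2109 and 1370 (0.01, SE 0.208, adjusted p = 0.997). The DEP and PBS mice overlapped in both genes, and the mice within a group lay further apart than the group means.

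B2m was at 4687 and 4349.6 CPM under DEP and at 4279 and 4579 under PBS (0.03, SE 0.143), a span of 1.10 fold over the 4 mice. Tap1 was at 75.1 and 49.8 against 70.3 and 40.1 (0.20, SE 0.262), and Tap2 at 67.03 and 46.1 against 67.8 and 41.3 (0.07, SE 0.240). Tapbp (0.01), Psmb8 (-0.00) and Psmb9 (0.10) overlapped between the groups as well.

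Over all barcodes, H2-M2 was the only member with both DEP mice above both PBS mice. It was at 298 and 210 CPM in DEP 11 and DEP 13 and at 113 and 173 in PBS 2 and PBS 3, and 13.8% of tested genes had both DEP mice above both PBS mice. The log2 fold change was 0.82 (SE 0.254, unadjusted p = 0.0130 in edgeR, adjusted p = 0.997). In the C1qa-high Ly6c2-low class, at 374 and 259 against 127 and 207, it was 0.92 (SE 0.242, unadjusted p = 0.00225, adjusted p = 0.556), where 0 of 6845 genes (0%) passed, 221 had an unadjusted p under 0.05, and 14.0% of genes had both DEP mice on top. Nlrc5, which was not tested, also had both DEP mice on top in that class, at 7.22 and 8.16 against 5.74 and 6.25 CPM, from 28 to 46 UMIs per mouse. H2-M2 did not pass the correction in either.

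The H2-M2 difference kept its sign in both of these comparisons in all settings tried but depended on the mice and on the genes tested. Over all barcodes it was 1.22 without PBS 3 (edgeR adjusted p = 0.00116) and 0.50 without PBS 2 (adjusted p = 0.505), and without DEP 13 it was 1.13 in the C1qa-high Ly6c2-low class (adjusted p = 0.00633), where a lone mouse is assumed to vary like the others. With no filter on low genes it passed in both (adjusted p = 0.00156 and 2.39e-04). Of 7 dissociation stress genes, 5 were lower in both DEP mice than in both PBS mice, against 12.8% of all tested genes. They summed to 7487 and 6209 CPM in the DEP and to 10197 and 8058 in the PBS mice. The part of sample handling in the H2-M2 difference was not tested.

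The share of C1qa-high Ly6c2-low barcodes with 5 or more H2-M2 UMIs was 15.2% and 10.7% for DEP 11 and DEP 13, against 6.83% and 9.03% for PBS 2 and PBS 3. After thinning to 1000 UMIs, a UMI of H2-M2 was found in 17.0% (95% interval 14.5% to 19.7%), 11.3% (8.68% to 14.5%), 7.48% (5.86% to 9.37%) and 12.1% (10.3% to 14.2%) of these barcodes. By this measure DEP 13 lay below PBS 3, and the groups overlapped.

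**Figure D5:**
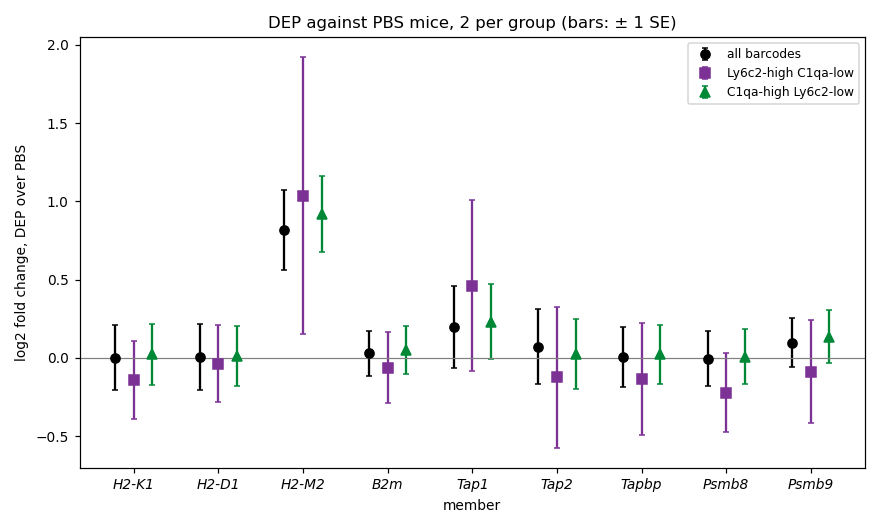
Log2 fold change of DEP over PBS for the 9 tested members (y axis; bars are ± 1 SE of the edgeR fit, 2 mice per group) over all barcodes and in both classes. H2-M2 lies at 0.82 over all barcodes and 0.92 in the C1qa-high Ly6c2-low class, and the other members over all barcodes lie between -0.00 and 0.20.

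In the Ly6c2-high C1qa-low class 3 of 5464 genes (0.0549%) passed, all lower in DEP mice, and none was a member. They were Iglc1, an antibody light chain at 47482 CPM in PBS 2 alone, the chemokine Ccl4 and the interferon-induced Ifit3. H2-M2 had a log2 fold change of 1.04 (SE 0.886) from 1 to 7 UMIs per mouse, with both DEP mice on top as in 17.9% of genes there. In the other classes the H2-M2 levels of the groups overlapped, at 113 and 49.1 CPM with DEP against 73.0 and 74.3 with PBS in barcodes high for both markers, where DEP 13 was lowest, and at 22.7 and 4.8 against 79.0 and 16.2 in barcodes low for both, from 1 to 7 UMIs per mouse. By C1qa level they overlapped in each step under 40 and not in the upper steps. The other 8 members had -0.22 to 0.46, with standard errors of 0.227 to 0.546. Tested as an interaction, the class by DEP term called 0 of 6659 genes (0%; 352 at an unadjusted p under 0.05 and 5 in the likelihood ratio test), and for H2-M2 the difference was -0.12 (SE 0.907, adjusted p = 0.9995).

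No gene of the lists around the members passed between DEP and PBS in any of these fits. Over all barcodes the median log2 fold change was 0.13 for the 11 other class I genes and -0.07 for the 13 loading and trimming genes. It was -0.09 for the 11 other core subunits, -0.10 for the 17 cap subunits and 0.16 for the 12 interferon gamma induced genes, against -0.01 for all genes tested. The last list went in opposite directions by class. Its median was 0.22 in the C1qa-high Ly6c2-low class, with 8 of 12 genes above 0. In the Ly6c2-high C1qa-low class it was -0.39, with 0 of 8 above 0, against 0.01 for all genes there.

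The mice differed in another order, which was noticed after the values were seen. H2-K1, H2-D1, Tap1, Tap2, Tapbp, Psmb8 and Psmb9, 7 of the 9 tested members, were higher in DEP 11 and PBS 2 than in DEP 13 and PBS 3, as were 34.3% of all tested genes. H2-D1 at 1982 and 2109 CPM in DEP 11 and PBS 2 against 1487 and 1370 in DEP 13 and PBS 3 is typical. With TMM scaling, which evens out the bulk of genes, the same 7 members kept this order and the share of all genes was 22.4%, with 22.2% in the opposite order. The order crosses the treatment groups.

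The order was also found within the 2 classes compared above. The 7 members showed it in the Ly6c2-high C1qa-low class (21.0% of genes) and in the C1qa-high Ly6c2-low class (31.4%). With TMM scaling it was shown by 6 in the former, without Tapbp (17.6% of genes), and by the same 7 in the latter (21.5%, with 21.4% in the opposite order). Thinned to 1000 UMIs, Tap2 and Tapbp no longer showed it in the former. Of all 10 members, 8 showed it in barcodes high for both markers (6 when thinned, without Tap1 and Tapbp). In barcodes low for both, with 17 barcodes in PBS 2, 4 showed it, and 0 when thinned. B2m, Tap2, Tapbp, Psmb8, Psmb9 and Nlrc5 did not show it there. The share of all genes with this order was not computed for these classes or after thinning, so these counts have no baseline. Over all barcodes the 2 tested members without the order were B2m, which spanned 1.10 fold, and H2-M2, and in the C1qa-high Ly6c2-low class the untested Nlrc5 did not show it either. B2m UMIs per heavy chain UMI (H2-K1 plus H2-D1) accordingly came to 1.59 in DEP 11 and 1.38 in PBS 2 but to 2.01 in DEP 13 and 2.24 in PBS 3.

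Several other measures differed between the same mice. Plasma cell markers summed to 3418 and 1723 CPM in DEP 11 and PBS 2 and to 5521 and 5922 in DEP 13 and PBS 3, and the median mitochondrial share was 1.73% and 1.64% against 2.02% and 1.81%. The summed resident macrophage markers (42177 and 46551 against 38052 and 36815 CPM), monocyte markers (2397 and 2270 against 2004 and 1986) and sort markers (520 and 580 against 476 and 453) followed the order of the members. Without T, B and plasma cell barcodes the same 7 members kept the order over all barcodes. Median depth did not follow it, at 5328.5 and 7115.5 against 5794 and 5367.5 UMIs. Of 12 interferon gamma induced genes, 3 were higher in DEP 11 and PBS 2 over all barcodes in CPM and 0 with TMM scaling, while in the Ly6c2-high C1qa-low class 3 of 8 were with TMM scaling. Of 11 other class I genes, 5 were over all barcodes with TMM scaling (H2-Q4, H2-Q6, H2-Q7, H2-Q10 and H2-T22), against 22.4% of all genes, but in the Ly6c2-high C1qa-low class 0 of 10 were and 3 had the opposite order, against 17.6% of all genes in either direction. The part of these marker sums and of the mitochondrial share in the order was not tested.

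Within a mouse the members hardly varied together from cell to cell. Over barcodes thinned to 1000 UMIs, the mean correlation of the 45 pairs of members ranged from -0.03 to 0.08, the highest for H2-D1 with B2m. At this depth most members give 0 or 1 UMI per barcode, so these values are no finding.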

How the data were processed

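Single cells of the colon lamina propria of 4 mice were profiled on 10x 3′ v2, one well per mouse. The authors deposited UMI counts per gene and barcode (28692 genes, 6954 barcodes). Per the labels Cell Ranger, STAR 2.6.1a and R 3.5.1 were used with mm10, and neither a Cell Ranger version nor an annotation was given in the sources used here. The lowest deposited barcode held 101 UMIs, and depth per mouse is given above.

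Barcodes with at least 1000 UMIs were kept, levels were UMIs per 10000 of a barcode, and counts were summed per mouse and class. Genes above 1 CPM in 2 or more sums that were found in no fewer than 5% of barcodes were tested with the quasi-likelihood test of edgeR 4.0.16 (TMM scaling, R 4.3.3), with Benjamini-Hochberg adjustment over all tested genes at a false discovery rate of 5%. Only the mouse was treated as a replicate. Ly6c2 and C1qa were left out of the class test, since they set the classes, and H2-M2 got no test there. Alternatives used DESeq2 1.42.0, limma 3.58.1 (voom), other filters, scaling, class cuts and left-out mice. The fits were checked on simulated data. Scrublet (scanpy 1.11.5) called 66 barcodes (1.38%) as doublets, which were kept, and leaving them out was an alternative. T, B and plasma cell barcodes had at least 3 UMIs and 5 per 10000 of their markers. Intervals of shares were 95% exact binomial and cover counting error only.

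The members, gene lists, markers and cuts were chosen with earlier results of these data known. Named genes were the members and, per list and direction, up to 2 genes with the smallest p past the threshold. H2-Q6, Psmb10, Psmb1 and Psmb3, and the genes set beside H2-M2 counts, were named after their values were seen. The values of 1 gene of the regulator list are not reported here. Sequences came from RefSeq (GRCm38.p6). B2m, Tap1, Tap2, Tapbp, Psmb8, Psmb9 and Nlrc5 overlap another annotated gene, and how shared reads were counted is not given.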

Additional observations from a re-analysis of the deposited data

How the results depend on the processing

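With 2 mice per group the DEP comparison has little room, and the Ly6c2-high C1qa-low class rests on 25 to 76 barcodes per mouse. No paired analysis was possible because the DEP and PBS mice share no replicate numbers. The C1qa cut of 20 was chosen after the data had been seen. The causes of the changes below were not tested.

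Between DEP and PBS over all barcodes, 119 genes were called with no filter on low genes, 4 by DESeq2 and 8 by the likelihood ratio test, against 0, and 7 to 35 when a mouse was left out. In the C1qa-high Ly6c2-low class these counts were 119, 7 and 12, against 0, and 0 to 24. In the Ly6c2-high C1qa-low class 3 became 24 with no filter, 1 by DESeq2, 11 by the likelihood ratio test, 11 with limits on detected genes and mitochondrial share, 12 with at least 2000 UMIs, 8 without T, B and plasma cell barcodes and 0 with at least 500 UMIs, halved or doubled cuts or a C1qa cut of 20 (with or without those barcodes), and 0 to 17 when a mouse was left out. For the difference of the DEP effect between classes, 0 became 22 with no filter, 5 by the likelihood ratio test, 2 without T, B and plasma cell barcodes, 1 when thinned, 1 with halved and 9 with doubled cuts, 2 with a C1qa cut of 20, and 0 to 15 when a mouse was left out. Between the classes, 1183 became 354 when thinned, 630 with halved and 1854 with doubled cuts, 2563 with a C1qa cut of 20 and 2621 with that cut and without T, B and plasma cell barcodes, and 702 (without DEP 11) to 1041 when a mouse was left out.

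Between the classes, H2-K1 lost its call in 10 of 20 alternatives and H2-D1 in 6 of 20, with their directions kept. Without the block for the mouse the edgeR adjusted p was 0.406 for H2-K1 and 0.327 for H2-D1. The likelihood ratio test gave 0.113 and 0.133, and with no filter H2-D1 had 0.560. B2m turned to -0.0022 without doublets, -0.072 with doubled cuts and -0.013 with a C1qa cut of 20 (leaving out a mouse, -0.015 to 0.041). Tap1 turned to -0.51 with doubled cuts, -0.52 with a C1qa cut of 20 and -0.51 with that cut and without T, B and plasma cell barcodes (-0.020 to 0.33), but was 0.62 when thinned. Tap2 turned to 0.48 when thinned and 0.035 with doubled cuts, Tapbp to -0.096 when thinned, Psmb8 to 0.25 when thinned and 0.16 with halved cuts, and Psmb9 to 0.084 with no filter, 0.019 when thinned and 0.58 with halved cuts (-0.11 to 0.030). The H2-D1 over H2-K1 ratio in the Ly6c2-high C1qa-low class was 3.10 without T, B and plasma cell barcodes, 2.59 when thinned, 2.68 with doubled cuts and 2.57 with a C1qa cut of 20, where the other class was at 1.97.

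Between DEP and PBS over all barcodes, H2-K1 turned to -0.0041 with DESeq2 or its size factors, -0.030 with no filter, -0.014 without T, B and plasma cell barcodes and -0.063 when thinned. With no filter H2-D1 was at -0.025, B2m at -0.00053 and Tapbp at -0.024, and Tapbp was at -0.0073 without T, B and plasma cell barcodes and -0.12 when thinned. Leaving out a mouse gave -0.22 to 0.24 for H2-K1, -0.23 to 0.28 for H2-D1, -0.071 to 0.14 for B2m, -0.10 to 0.60 for Tap1, -0.19 to 0.41 for Tap2, -0.20 to 0.20 for Tapbp, -0.21 to 0.17 for Psmb8 and -0.065 to 0.23 for Psmb9. The difference of the H2-M2 DEP effect between classes turned to 0.16 with limma voom, 0.048 with at least 2000 UMIs, 0.65 with doubled cuts, 0.84 with a C1qa cut of 20 and 0.75 with that cut and without T, B and plasma cell barcodes, was -4.98 when thinned and -7.63 with halved cuts, and was -0.37 to 0.011 when a mouse was left out. In the Ly6c2-high C1qa-low class the H2-M2 log2 fold change of 1.04 ranged from 0.15 with a C1qa cut of 20 to 3.87 with halved cuts.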
